A study of Mus musculus with 6 samples.

Results

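The S100 genes encode small calcium-binding proteins, and 8 of them were followed here in wild-type and Ki-67 knockout 4T1 cells: S100a1, S100a4, S100a6, S100a10, S100a11, S100a13, S100a14 and S100a16. They were picked by symbol among the 54146 Ensembl genes counted, with earlier results of these data known, and all 8 passed the filter on low counts that left 13755 genes for testing, S100a16 through its reads in WT and clone 2. 4T1 is an established mouse mammary carcinoma line of BALB/c origin, labelled as mammary epithelium. The 3 groups of 2 libraries were compared: wild type (WT), and clone 1 and clone 2 of cells labelled Mki67-/-, a knockout of the gene for the proliferation marker Ki-67. Each knockout group is 1 clone, so an effect of the knockout and a property of that clone cannot be told apart. The labels do not tell separate cultures from repeat preparations, and the p-values therefore reflect only how far these libraries vary, a spread that can be technical.

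S100 proteins carry a pair of EF-hand loops and mostly work as dimers. When calcium rises, most of them open a surface that grips a target, such as an annexin at the membrane, a non-muscle myosin or an enzyme. S100A10 is the exception, since its loops have lost calcium binding and it sits permanently in a complex with annexin A2. Several S100 proteins are also released from cells without a signal peptide and act on receptors such as RAGE and TLR4. S100A4 is best known in mammary carcinoma for its link to metastasis.

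All 8 genes lie on chromosome 3 (GRCm38, GENCODE M21) in the mouse counterpart of the epidermal differentiation region. S100a1 (ENSMUSG00000044080, chr3:90511034-90514392) is on the minus strand, and the other members are on the plus strand. S100a13 (ENSMUSG00000042312, chr3:90514435-90524581), S100a14 (ENSMUSG00000042306, chr3:90526856-90528837), S100a16 (ENSMUSG00000074457, chr3:90537254-90543151), S100a4 (ENSMUSG00000001020, chr3:90603771-90606045) and S100a6 (ENSMUSG00000001025, chr3:90612882-90624181) follow it. S100a11 (ENSMUSG00000027907, chr3:93520488-93526287) and S100a10 (ENSMUSG00000041959, chr3:93555080-93564643) stand apart from those 6 and are separated from each other by 28792 bases. S100a1 and S100a13 start back to back, with 42 bases between their GENCODE starts, and are the closest pair of members.

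Promoter windows were taken from a RefSeq table of GRCm38.p6, which held 6 of the 8 members, S100a10 and S100a14 not among them. The sequences below are shown on the plus strand and hold no annotated exon base. The first is the whole stretch between the GENCODE starts of the divergent pair (RefSeq places the S100a1 start inside the GENCODE gene, at base 90514330), whose genes were both lower in both clones. The others are the bases upstream of S100a4 and S100a16, which were lower, and of S100a6, which was higher. Capitals mark a TATAAA match.
S100a1 and S100a13 (chr3:90514393-90514434): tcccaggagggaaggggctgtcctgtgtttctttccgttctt
S100a4 (chr3:90603520-90603769): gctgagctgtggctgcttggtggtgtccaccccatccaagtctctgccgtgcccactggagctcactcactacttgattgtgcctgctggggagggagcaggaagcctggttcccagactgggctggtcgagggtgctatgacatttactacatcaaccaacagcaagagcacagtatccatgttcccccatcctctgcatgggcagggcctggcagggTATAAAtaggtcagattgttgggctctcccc
S100a6 (chr3:90612644-90612881): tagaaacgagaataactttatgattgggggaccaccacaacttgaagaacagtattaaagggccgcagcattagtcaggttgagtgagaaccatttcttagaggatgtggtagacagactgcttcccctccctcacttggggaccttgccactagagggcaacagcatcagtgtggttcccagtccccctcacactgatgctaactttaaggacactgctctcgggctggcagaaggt
S100a16 (chr3:90537004-90537253): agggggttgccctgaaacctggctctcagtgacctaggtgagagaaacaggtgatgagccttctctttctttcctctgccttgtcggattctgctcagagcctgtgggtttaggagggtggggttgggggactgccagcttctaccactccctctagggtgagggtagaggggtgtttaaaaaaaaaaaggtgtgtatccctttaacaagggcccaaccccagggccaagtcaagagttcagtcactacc
The motifs, 3 in all, were searched on both strands in the 250 bases upstream of each start: TATAAA, the core of a TATA box, GGGCGG, a GC box bound by SP1, and TGANTCA, the AP-1 site. They occurred in 12.4%, 32.7% and 6.75% of 32841 RefSeq promoters of the same length. The S100a4 window held 1 TATAAA match, 31 bases upstream of the start. The S100a11 window, not printed, held 3 GGGCGG matches and 2 TGANTCA matches, and the second RefSeq start of S100a16 held 1 of each. None of the 3 motifs was found in the windows of S100a1, S100a6, S100a13 or the first start of S100a16, which says only that these letters are not in those windows. The windows differed in their CG dinucleotides, with 13 for S100a13, 11 for S100a11, 8 for S100a1, 3 for S100a6, 2 for S100a4 and 1 for the first start of S100a16, against a median of 6 over all promoters.

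Libraries held 10428970 to 22658499 reads assigned to genes, so that 3 counts, the most that a count of 0 allows, corresponded in 1 library to 0.132 to 0.288 CPM, the usual depth-scaled unit of read counts. Mki67, the targeted gene, was at 736 and 647 CPM in WT, against 85.8 and 102.5 in clone 1 and 39.9 and 52.75 in clone 2, which follows the labels. All 8 epithelial markers had reads in every group, with a summed level of 3909 to 4499 CPM in WT, 5768 to 5783 in clone 1 and 5758 to 6148 in clone 2. In clone 1, 4 of these 8 markers were called higher and 1 lower, and in clone 2, 4 higher and 2 lower. The shares over all genes tested were 24.7% higher and 26.2% lower in clone 1, and 25.3% and 28.2% in clone 2. Whether the marker changes bear on the S100 genes was not tested. Krt7 and Krt18, keratins of simple epithelia, and Cldn7, a claudin, rose in both clones (log2 1.07 and 1.17, 0.53 and 0.75, and 1.10 and 1.27), and the claudin Cldn4 fell (log2 -0.88 and -0.68, adjusted p at most 0.00165 for all 4, edgeR). Of 12 neutrophil and macrophage markers, 1, 4 and 3 had any read in WT, clone 1 and clone 2, with summed levels of at most 0.0986, 0.135 and 0.294 CPM. Mpo, Camp, Ngp, Retnlg, Csf3r and Adgre1 had no read. Of 10 fibroblast and endothelial markers, 3, 4 and 4 had reads, with sums of at most 0.590, 0.450 and 0.471 CPM. In bulk RNA, fewer cells of a type and less RNA per cell cannot be told apart.

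On the CPM scale, which is not corrected for gene length, 1 gene held most S100 reads. S100a6 made up 72.7% to 75.9% of the summed CPM of the 8 members in each library, and S100a10 another 14.2% to 17.8%. The sum was 2150 and 2041 CPM in WT, against 2615 and 2993 in clone 1 and 2889 and 2515 in clone 2. Both clones were above WT in every library, and the clones overlapped. Levels per kilobase of exon allow a rough comparison between genes, with the length taken over the annotated exons of all transcripts of a gene. Which transcripts were expressed was not measured, so the ranks depend on the annotation. On this scale S100a6 was at 1137 ± 7.83 CPM per kb in WT (SD, n = 2). S100a4 (309.8 ± 27.1), S100a10 (252 ± 18.7) and S100a11 (197 ± 102) came next, S100a10 and S100a11 not separated beyond the spread of the S100a11 libraries. S100a1 was at 42.2 ± 0.981 and S100a13 at 19.8 ± 1.10 CPM per kb in WT, and S100a16 (2.05 ± 0.566) and S100a14 (0.593 ± 0.0314) were lowest. In clone 1, S100a10 was at 411 ± 39.3 CPM per kb and S100a4 at 209.8 ± 35.6. In clone 2 these were 373 ± 6.26 and 242 ± 11.03. S100a16 was the lowest member in both clones, at 0.138 ± 0.00193 and 0.444 ± 0.165 CPM per kb. The S100a4 level uses the 282 exonic bases that no other gene on its strand shares, and its rank depends on this. Over all 584 exonic bases S100a4 was at 149.6 ± 13.1 CPM per kb in WT, 101 ± 17.2 in clone 1 and 117 ± 5.33 in clone 2, below S100a10 and S100a11 in mean in all 3 groups.

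Against WT, S100a6 and S100a10 were higher in both clones, and S100a1, S100a4, S100a13 and S100a16 were lower in both. S100a11 and S100a14 did not pass the test in either. Called here means an adjusted p under 0.05 in the quasi-likelihood test of edgeR, with p adjusted over all 13755 genes by Benjamini and Hochberg. In clone 1, 2 of 8 members were called higher and 4 lower, where 24.7% of all genes tested were called higher and 26.2% lower. In clone 2 the counts were again 2 and 4 of 8, against 25.3% and 28.2% of all genes. The median log2 fold change of the members was -0.65 in clone 1 and -0.17 in clone 2. The medians over all genes were -0.01 and -0.02, and those over the 735 genes tested on chromosome 3 were -0.11 and -0.18. The 2 comparisons use the same WT libraries, so their values stand side by side and are not independent of each other. The share of all genes called in the same direction in both clones was not computed. The members called alike in both clones therefore have no background here.

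**Figure D1:**
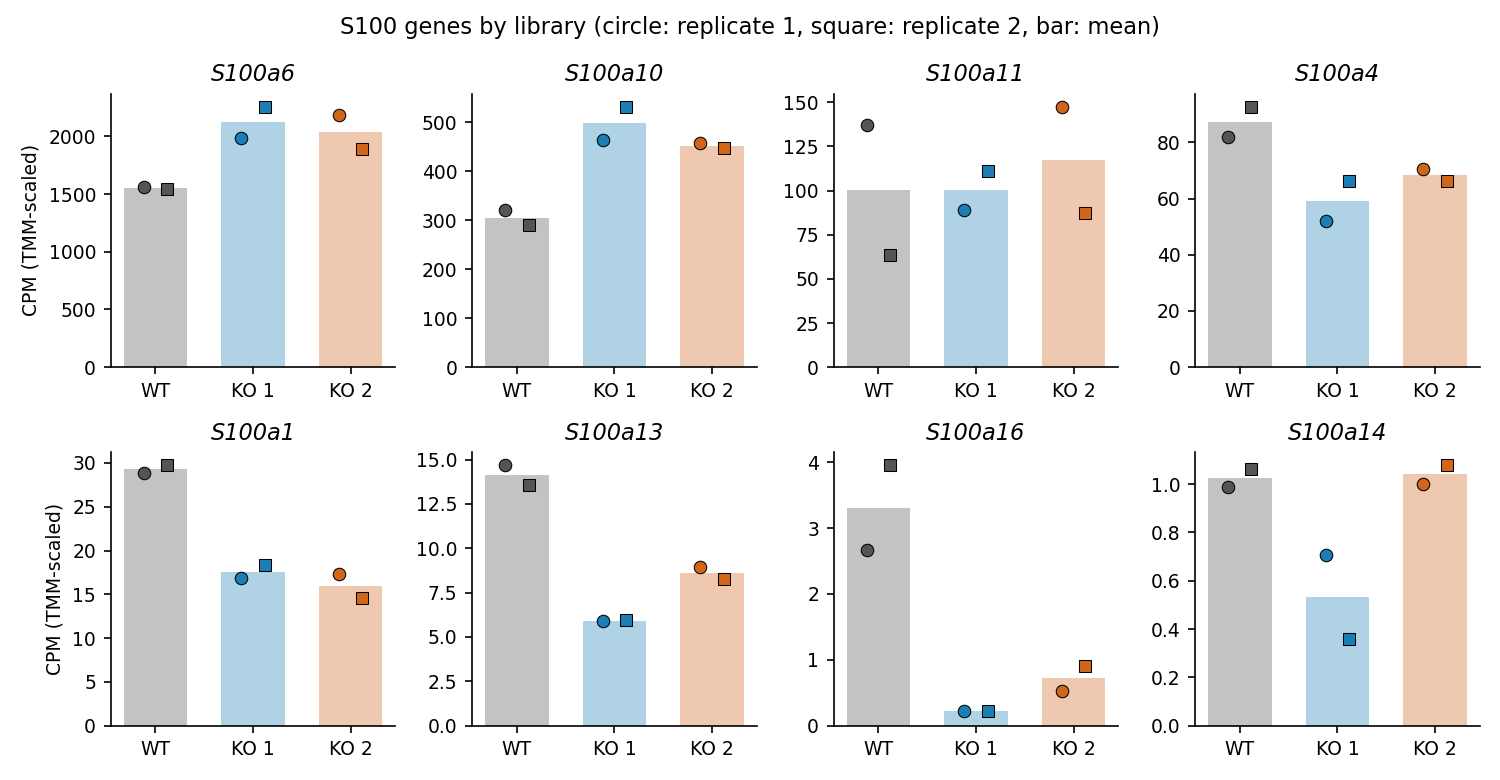
Level of each of the 8 S100 genes (CPM, y axis from 0) in the 3 groups (x axis), with a circle for replicate 1, a square for replicate 2 and a bar at the group mean. S100a6 and S100a10 are higher in all 4 knockout libraries than in both WT libraries. S100a1, S100a4, S100a13 and S100a16 are lower in all 4. The share of all genes whose libraries separate in this way was not computed. The S100a11 replicates of WT spread from 63.6 to 137 CPM.

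S100a10, also called p11, is the light chain that pairs with annexin A2 and tethers it and plasminogen to the cell surface. Its level was 321 and 289 CPM in WT, against 465 and 532 in clone 1 and 458 and 447 in clone 2. Every knockout library lay above both WT libraries, and the clone 2 libraries lay just below those of clone 1. S100a10 rose 1.63-fold in clone 1 (log2 0.71, SE 0.117, adjusted p = 0.000115) and 1.48-fold in clone 2 (log2 0.57, SE 0.117, adjusted p = 0.000724, edgeR). Clone 2 against clone 1 gave a log2 difference of -0.14 with a 95% interval from -0.39 to 0.11.

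The annexins that bind S100 proteins were read from the same fit. Anxa2, the partner of S100a10, was at 774 and 665 CPM in WT, against 1010 and 1137 in clone 1 and 1424 and 1149 in clone 2. It stood above WT in all 4 knockout libraries. Anxa2 rose by a log2 fold change of 0.58 in clone 1 (SE 0.133, adjusted p = 0.00181) and 0.84 in clone 2 (SE 0.133, adjusted p = 6.68e-05, edgeR). Of the 5 annexins listed as partners (Anxa1, Anxa2, Anxa5, Anxa6 and Anxa11), 2 were called higher and 0 lower in clone 1 (0 lower also at an unadjusted p under 0.05 in edgeR, DESeq2 and limma), and 3 higher and 1 lower in clone 2. Over all genes tested the shares were 24.7% higher and 26.2% lower in clone 1 and 25.3% and 28.2% in clone 2. Their median log2 fold changes were 0.17 and 0.49. Anxa5, a membrane binder used as a probe of dying cells, rose in both clones (log2 0.40, adjusted p = 0.0111, and 0.49, adjusted p = 0.00255, edgeR). Anxa1, a binder of S100a11, fell in clone 2 (log2 -0.95, adjusted p = 1.72e-05) and was at -0.20 in clone 1 (adjusted p = 0.204). Anxa11, a binder of S100a6, rose in clone 2 (log2 1.02, adjusted p = 1.92e-05) and was at 0.17 in clone 1 (adjusted p = 0.354). The clones differed from each other in both: by -0.74 for Anxa1 (adjusted p = 0.00103) and 0.85 for Anxa11 (adjusted p = 0.000562).

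**Figure D2:**
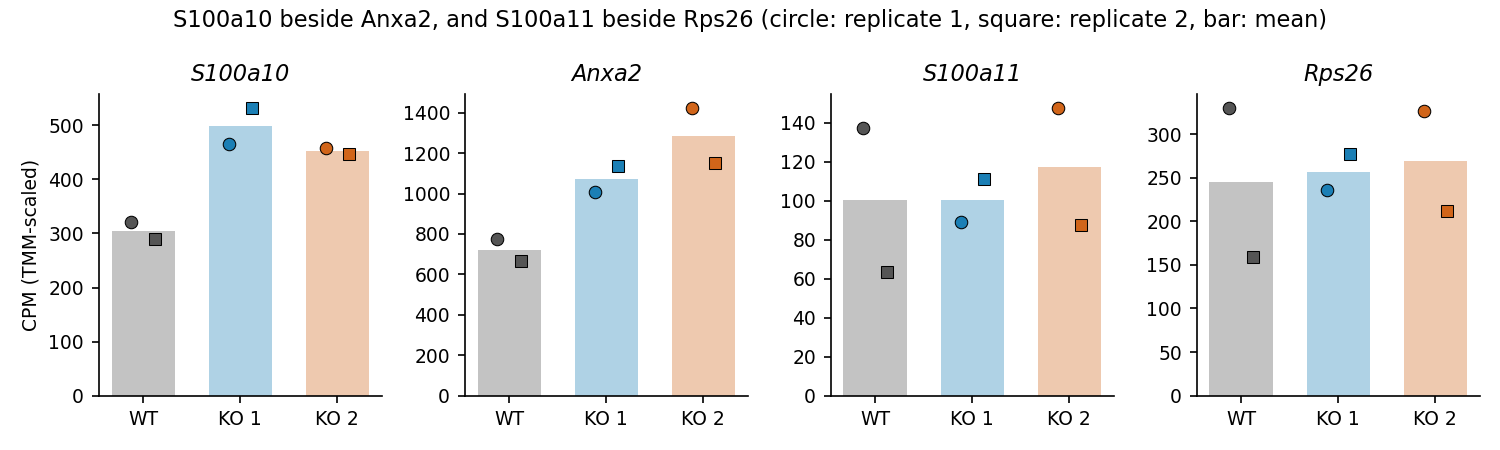
Level (CPM, y axis from 0) of S100a10, its partner Anxa2, S100a11 and Rps26 in each library of the 3 groups (x axis), with a circle for replicate 1, a square for replicate 2 and a bar at the group mean. S100a10 and Anxa2 sit above WT in all 4 knockout libraries, while S100a11 and Rps26 have their highest and lowest WT values in replicates 1 and 2 and overlap between groups. Rps26 was picked for its likeness to S100a11 in these same libraries.

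S100a6, or calcyclin, is a cytosolic and membrane-associated member found in proliferating cells. Its level was 1562 and 1547 CPM in WT, against 1985 and 2258 in clone 1 and 2185 and 1890 in clone 2. All 4 knockout libraries were above WT, and the clones overlapped. S100a6 rose 1.37-fold in clone 1 (log2 0.45, SE 0.121, adjusted p = 0.00574) and 1.31-fold in clone 2 (log2 0.39, SE 0.121, adjusted p = 0.0126, edgeR). The call was lost without replicate 2 of clone 1 (log2 0.36, adjusted p = 0.116) and, in clone 2, without its replicate 1 (log2 0.29, adjusted p = 0.107). Cacybp, which encodes the calcyclin-binding protein, was not called in either clone (log2 0.33, adjusted p = 0.0851, and -0.18, adjusted p = 0.325).

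S100a4, or metastasin, binds the tail of non-muscle myosin and takes filaments apart. Its level was 82.0 and 92.8 CPM in WT, against 52.1 and 66.3 in clone 1 and 70.5 and 66.1 in clone 2. The 4 knockout libraries lay below both WT libraries. S100a4 fell in clone 1 to 0.676 of WT (log2 -0.56, SE 0.133, adjusted p = 0.00216) and in clone 2 to 0.780 (log2 -0.36, SE 0.133, adjusted p = 0.0318, edgeR). In clone 1 the call was lost without its replicate 1 (log2 -0.40, adjusted p = 0.0835). The clone 2 call was lost in 8 of 18 alternative settings: it gave -0.18 (adjusted p = 0.285) once each chromosome's median shift was taken out, and it was lost without WT replicate 2 (-0.26, adjusted p = 0.142) and without clone 2 replicate 1 (-0.40, adjusted p = 0.096) or 2 (-0.32, adjusted p = 0.153). Of its 584 exonic bases, 302 are shared with Gm42674, an annotated gene that spans S100a3 and S100a4 and has 0 reads in every library, so that reads within the shared bases would be counted for neither gene.

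The intracellular targets of S100 proteins other than annexins included genes called in each direction. Of 18 listed, 15 were tested: 1 was called higher and 5 lower in clone 1, and 2 higher and 6 lower in clone 2, with median log2 fold changes of -0.15 and -0.24. Of all genes tested, 24.7% were higher and 26.2% lower in clone 1, and 25.3% and 28.2% in clone 2. The lower counts are not far from these shares. The higher counts, 1 and 2 of 15, are below them, and no difference from the shares was tested. Iqgap1, a scaffold of the cortical actin network, rose in both clones (log2 0.60, adjusted p = 0.000346, and 0.33, adjusted p = 0.0209). Myh14, a non-muscle myosin heavy chain, fell in both (log2 -0.63, adjusted p = 0.0136, and -0.97, adjusted p = 0.00104). Dlc1, whose product is bound by S100a10, went from 29 and 34 reads in WT to 8 and 15 in clone 1 (log2 -2.19, adjusted p = 0.00027, edgeR). In clone 2 it had 0 and 1 reads, a WT to clone 2 ratio of 93.4 with a 95% counting interval from 16.2 to 3748. Dlc1 passed the filter on low counts only through its reads in WT. Myh9, the main myosin bound by S100a4, was not called (log2 0.29, adjusted p = 0.0878, and 0.31, adjusted p = 0.0673, edgeR). Its 95% intervals were 0.00025 to 0.57 in clone 1 and 0.02 to 0.59 in clone 2. The missing call therefore does not show that Myh9 was unchanged.

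S100a11, or calgizzarin, binds annexins and takes part in membrane repair. Its level was 137 and 63.6 CPM in WT, against 89.0 and 111 in clone 1 and 148 and 87.3 in clone 2. The WT replicates differed from each other by more than any group means did, and all groups overlapped. No change was called in clone 1 (log2 0.01, 95% interval -1.60 to 1.61, adjusted p = 0.994) or clone 2 (log2 0.23, 95% interval -1.37 to 1.84, adjusted p = 0.753). These intervals are the widest of the 8 members, although the gene had 1077 to 2506 reads a library. Of its 50-base words, 41.1% occur also in the pseudogenes Gm12854, Gm29240 or Gm7665, which had at most 7, 1 and 3 reads in a library. Multimapping reads were 24.7% of all reads in WT replicate 1 and 29.3% in WT replicate 2. They were 25.1% and 25.3% in clone 1, and 26.2% and 27.1% in clone 2. Whether either bears on the S100a11 spread was not tested. The gene with the pattern nearest to S100a11, picked by its values in these same libraries, was Rps26, a ribosomal protein gene. Rps26 was at 330 and 159 CPM in WT, against 235 and 277 in clone 1 and 327 and 212 in clone 2. Its likeness to S100a11, with the order of replicates within each group, comes with that choice and is no separate result.

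S100a1 is the heart and muscle member of the family, known for binding the calcium pump and the ryanodine receptor. Its level was 28.8 and 29.8 CPM in WT, against 16.8 and 18.3 in clone 1 and 17.3 and 14.6 in clone 2. The 4 knockout libraries lay well below WT and overlapped between clones. S100a1 fell to 0.599 of WT in clone 1 (log2 -0.74, SE 0.137, adjusted p = 0.000309) and to 0.543 in clone 2 (log2 -0.88, SE 0.139, adjusted p = 6.18e-05, edgeR). Clone 2 against clone 1 gave -0.14 with a 95% interval from -0.43 to 0.15.

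S100a13, whose start faces that of S100a1 across the 42 printed bases, helps export FGF1 and interleukin 1 alpha by the route that needs no signal peptide. Its level was 14.7 and 13.6 CPM in WT, against 5.91 and 5.93 in clone 1 and 8.95 and 8.29 in clone 2. The 3 groups did not overlap, with WT highest and clone 1 lowest. S100a13 fell to 0.420 of WT in clone 1 (log2 -1.25, SE 0.164, adjusted p = 1.12e-05) and to 0.611 in clone 2 (log2 -0.71, SE 0.160, adjusted p = 0.0014, edgeR). The balance of the divergent genes was not tested. S100a1 had 1.96 and 2.19 reads per S100a13 read in WT, against 2.85 and 3.08 in clone 1 and 1.93 and 1.77 in clone 2. Chtop, the next coding gene beyond S100a1, was not called in either clone (log2 -0.16 and -0.17), and Tchhl1 and Tdpoz2, the coding genes that flank S100a11 and S100a10, had no read.

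Of 4 genes listed for this export route, Il1a and Sphk1 were tested and both were called higher in both clones. Among all genes tested, 24.7% were called higher in clone 1 and 25.3% in clone 2, so 2 genes say little about the route. Il1a, the cytokine cargo, was at 8.09 and 6.85 CPM in WT, against 18.1 and 21.6 in clone 1 and 552 and 539 in clone 2. No library of 1 group reached those of another. Il1a rose by a log2 fold change of 1.43 in clone 1 (adjusted p = 9.46e-07). In clone 2 it rose by 6.21 (adjusted p = 1.21e-13), while the clones differed by 4.78 (adjusted p = 1.9e-12, edgeR). Sphk1, a sphingosine kinase released with FGF1, rose by 0.55 (adjusted p = 0.00439) and 0.61 (adjusted p = 0.00212). Fgf1 had 4 to 9 reads a library and was not tested, and Syt1 had none.

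S100a16, a widely expressed member that binds calcium weakly, changed most of the 8. Its level was 2.66 and 3.96 CPM in WT, against 0.220 and 0.225 in clone 1 and 0.530 and 0.907 in clone 2, from 27, 67, 5, 5, 9 and 21 reads. The 3 groups did not overlap. S100a16 fell to 0.0673 of WT in clone 1 (log2 -3.89, SE 0.421, 95% interval -4.83 to -3.04, adjusted p = 1.29e-06) and to 0.220 in clone 2 (log2 -2.19, SE 0.346, 95% interval -2.93 to -1.46, adjusted p = 6.09e-05, edgeR). Its neighbours on either side are S100a14, 8416 bases away, and S100a3, 17426 bases away, and neither was called lower in either clone. S100a14 had few reads, and in clone 1 its log2 fold change was -0.94 with a 95% interval from -1.88 to -0.02. The missing call for S100a14 therefore does not show that it was unchanged.

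S100a14 is an epithelial member linked to cell motility. It had few reads, with 0.986 and 1.06 CPM in WT, against 0.705 and 0.360 in clone 1 and 1.00 and 1.08 in clone 2, from 8 to 25 reads. Both clone 1 libraries were below WT, and clone 2 overlapped WT. No change was called in clone 1 (log2 -0.94, 95% interval -1.88 to -0.02, adjusted p = 0.0809) or clone 2 (log2 0.02, 95% interval -0.82 to 0.86, adjusted p = 0.975). The clone 1 value rested on which of its libraries was kept: it was -1.50 without replicate 1 of clone 1 and -0.54 without replicate 2.

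**Figure D3:**
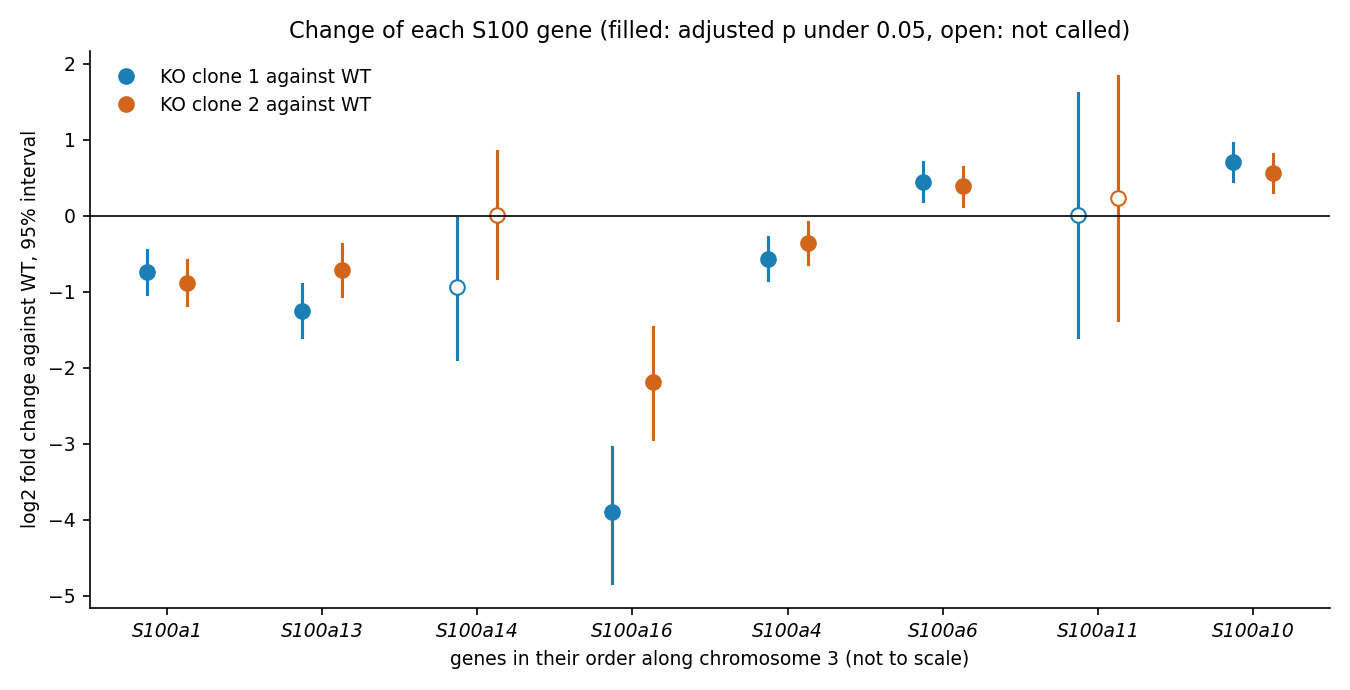
Log2 fold change of each S100 gene against WT (y axis) for clone 1 and clone 2, with 95% intervals, in the order of the genes along chromosome 3 (x axis). Filled points have an adjusted p under 0.05 (edgeR), and the points run from -3.89 for S100a16 in clone 1 to 0.71 for S100a10 in clone 1.

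The clones were also compared with each other. Between clone 2 and clone 1, 2 of 8 members were called higher in clone 2 and 0 lower, where 12.1% of all genes were called higher and 11.4% lower. At an unadjusted p under 0.05, edgeR, DESeq2 and limma likewise had 0 members lower. S100a13 was higher in clone 2 by 0.54 on the log2 scale (SE 0.164, 95% interval 0.19 to 0.89, adjusted p = 0.027), and S100a16 by 1.71 (SE 0.527, 95% interval 0.62 to 2.85, adjusted p = 0.0266, edgeR). Both calls were lost with DESeq2 (adjusted p = 0.0643 and 0.062) and whenever 1 of the 4 knockout libraries was left out, which gave adjusted p from 0.073 to 0.17 for S100a13 and from 0.0682 to 0.244 for S100a16. The other 6 members were not called, and their 95% intervals were -0.32 to 0.20 for S100a6, -0.07 to 0.49 for S100a4 and 0.11 to 1.83 for S100a14, whose adjusted p was 0.0925. The S100a14 difference was 1.51 without replicate 1 of clone 1 and 0.56 without replicate 2.

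The members' patterns over the 6 libraries were set against each other by the Euclidean distance between centred log2 CPM, a description with no test. Of the 28 pairs of members, S100a6 and S100a10 were closest, at 0.309, and S100a10 and S100a16 were farthest apart, at 4.17. S100a1 lay nearer to S100a4 (0.575) than to its divergent neighbour S100a13 (0.720). Among 8914 other genes whose average log2 CPM was 3 or more, the nearest pattern to S100a13 was that of Ogdh, a subunit of a mitochondrial dehydrogenase, at a distance of 0.0996. Ogdh was at 125 ± 2.24 CPM in WT, against 51.8 ± 1.79 in clone 1 and 78.0 ± 5.72 in clone 2 (SD, n = 2). The nearest to S100a16 was Klhl5, at 0.752, with 38.2 ± 2.18, 4.51 ± 0.535 and 12.3 ± 1.19 CPM. The nearest to S100a1 was Hcfc2 (0.132), to S100a4 Chchd2 (0.130), to S100a6 Rpl35a (0.0959), to S100a10 Pop1 (0.113), to S100a11 Rps26 (0.189) and to S100a14 Ppp1r26 (0.341).

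The rest of the S100 family was mostly silent. Of 9 other S100 genes listed, 8 matched a gene ID, 7 had a read and 2 were tested. S100a7a, which lies 29835 bases beyond S100a6, was at 0.493 and 0.590 CPM in WT, against 1.90 and 2.16 in clone 1 and 4.59 and 3.15 in clone 2, and the groups did not overlap. It rose in clone 1 (log2 1.86, adjusted p = 0.000772) and clone 2 (log2 2.78, adjusted p = 7.74e-06, edgeR). Clone 2 was above clone 1 by 0.91 (adjusted p = 0.0174, edgeR). S100a7a passed the filter on low counts through its reads in the clones. S100a3, between S100a16 and S100a4, was at 7.40 and 8.50 CPM in WT, against 12.3 and 10.9 in clone 1 and 7.18 and 6.95 in clone 2. It rose in clone 1 (log2 0.54, adjusted p = 0.0141), and clone 2 was below clone 1 (log2 -0.72, adjusted p = 0.00557), while clone 2 against WT gave -0.18 (adjusted p = 0.402).

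S100a8 and S100a9 form calprotectin, the abundant S100 pair of neutrophils. S100a9 had no read in any library. S100a8 had 5 and 10 reads in the clone 2 libraries and none elsewhere, and was too low to test. Of the 12 neutrophil and macrophage markers, 3 had a read in those libraries: Ptprc had 2 and 2, Ltf 3 and 1, and Ly6g 0 and 1. Ptprc also had 1 and 1 reads in clone 1, where S100a8 had none, and the part of such cells in these reads was not tested. S100a5, S100b, S100g and S100z had 1 read each over all libraries, and S100a2, added after its values were seen, had 0 to 8. Of 7 fused S100-type genes of the same region, which make cornified proteins of skin and hair, 1 was tested: Tchh, trichohyalin. It passed the filter on low counts only through its reads in WT, the group where it was highest. Tchh fell from 2.47 and 1.71 CPM in WT to 0.220 and 0.539 in clone 1 (log2 -2.40, adjusted p = 0.000229, edgeR). In clone 2 it was at 0.412 and 0.389 CPM (log2 -2.33, adjusted p = 0.000317, edgeR).

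Of 7 listed receptors of released S100 proteins, 5 were tested: 1 was called higher and 2 lower in clone 1, and 1 higher and 3 lower in clone 2, with median log2 fold changes of -0.27 and -0.46. Of all genes, 24.7% were higher and 26.2% lower in clone 1, and 25.3% and 28.2% in clone 2. Tlr4, a receptor of the innate immune system, was at 47.7 and 36.9 CPM in WT, against 19.9 and 20.5 in clone 1 and 11.01 and 11.3 in clone 2, and the groups did not overlap. It fell by 1.06 on the log2 scale in clone 1 (adjusted p = 1.34e-05) and by 1.92 in clone 2 (adjusted p = 3.16e-08). Alcam, an adhesion receptor of the immunoglobulin family, was at 10.1 and 11.8 CPM in WT, against 35.2 and 39.9 in clone 1 and 42.0 and 43.4 in clone 2, and rose in both (log2 1.77, adjusted p = 5.21e-08, and 1.95, adjusted p = 1.37e-08, edgeR). Ager, which encodes RAGE, had 2 to 12 reads a library and was not tested.

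**Figure D4:**
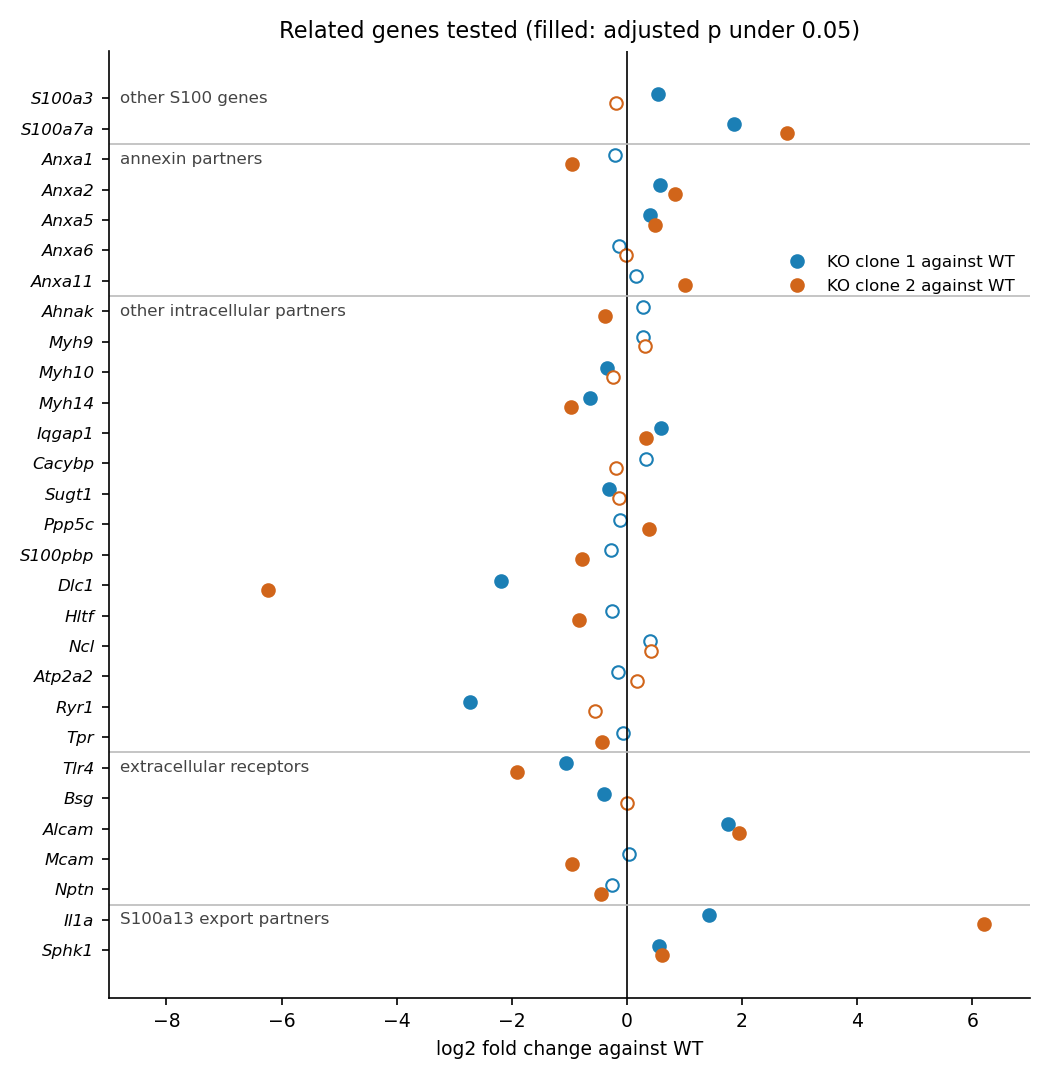
Log2 fold change against WT (x axis) of the related genes tested, grouped by list (y axis), for clone 1 and clone 2, with filled points where the adjusted p is under 0.05 (edgeR). Il1a in clone 2, at 6.21, lies farthest to the right, and the fitted value of Dlc1 in clone 2 rests on 1 read in that clone and is no bound.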

How the data were processed

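RNA was read from 6 stranded, ribosome-depleted total RNA libraries. Per the submitters' processing notes, FastQC, the aligner STAR (2.6.0c) and the build GRCm38 were used; the annotation is not given in the sources used here. The authors deposited raw counts per gene. Column 4 was used, which held 92.3% to 95.7% of stranded gene reads. Entries that name no gene held 46.9% to 56.8% of reads and stayed out of library sizes and tests. GENCODE M21 matched 54079 of 54146 IDs.

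Counts were filtered with filterByExpr, scaled by TMM and tested on all genes and libraries with edgeR 4.0.16 (R 4.3.3), by a quasi-likelihood fit with 1 term per group, Benjamini-Hochberg adjusted; CPM use the TMM-scaled sizes. It left 3 residual degrees of freedom, and the biological coefficient of variation was 10.3%. The script was tested on simulated data. DESeq2 1.42.0 and limma 3.58.1 served as alternatives. Replicates of a group differed by more than counting noise (chi-square over its degrees of freedom 19.4 to 82.2).

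The 8 members and 10 related lists (105 of 106 symbols matched) were chosen with earlier results of these data known. Named were the members, Mki67, other S100 genes with a read, up to 4 genes per list called in both clones in 1 direction (or else the smallest adjusted p in each clone), each member's nearest pattern and flanking coding genes. Genes outside this rule were named after their values were seen: Anxa1, Anxa6, Anxa11, Cacybp, Myh9, Ager, Fgf1, Syt1, S100a2, S100a9 and the leukocyte markers. Intervals on reads and the limit of 3 counts cover counting error only.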

Additional observations from a re-analysis of the deposited data

Results flagged for a closer look

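Clone 2 against clone 1 gave a call in 2 members, and neither call was stable. S100a13 was higher in clone 2 than in clone 1 by 0.54 on the log2 scale (8.95 and 8.29 against 5.91 and 5.93 CPM, adjusted p = 0.027, edgeR). S100a16 was higher in clone 2 by 1.71 (0.530 and 0.907 against 0.220 and 0.225 CPM, adjusted p = 0.0266, edgeR), from 5 to 21 reads a library. Neither passed with DESeq2 (adjusted p = 0.0643 and 0.062), with a minimum change of 1.5-fold, or without any 1 of the 4 knockout libraries (adjusted p from 0.073 to 0.17 and from 0.0682 to 0.244, edgeR). In both genes all 4 knockout libraries were below WT.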

How the results depend on the processing

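Each result was recomputed in 18 alternative settings. Of 432 values for single members, 386 kept their direction and their side of the threshold, 30 kept their direction but lost the call, and 16 changed sign, all of them uncalled. Against WT, S100a16 in both clones, S100a13 in clone 1 and S100a1 in clone 2 kept their calls in all 18. Requiring a change of 1.5-fold left 0 members higher and 2 lower in clone 1 (S100a13 and S100a16), 0 higher and 2 lower in clone 2 (S100a1 and S100a16) and 0 higher in clone 2 against clone 1, of 2686, 3035 and 343 genes called; at an unadjusted p under 0.05 this edgeR test had 0, 0 and 1 members higher. DESeq2 also called 0 members higher in clone 2 against clone 1, with 2 at an unadjusted p under 0.05. Leaving out 1 library at a time gave 1 to 2 members higher and 3 to 4 lower in clone 1 (5348 to 7051 genes called), 1 to 2 and 3 to 4 in clone 2 (5693 to 7133 genes) and 0 to 2 higher between clones (766 to 4612 genes).

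S100a11 in clone 1 changed sign with upper-quartile scaling (-0.053), DESeq2 (-0.0084), a filter of 1 CPM in 2 libraries (-0.0018) and only the groups compared (-0.0015), and ran from -0.45 to 0.66 on leaving out 1 library. In the same leave-one-out fits S100a11 ran from -0.22 to 0.89 in clone 2 and from -0.19 to 0.55 between clones. S100a14 in clone 2 gave -0.069 with upper-quartile scaling, -0.0044 with the 1 CPM filter and -0.056 to 0.088 without 1 library. S100a6 between clones gave 0.017 with chromosome medians removed and -0.16 to 0.037 without 1 library. The causes were not tested. S100a4 in clone 2 also lost its call with no filter on low counts (-0.29, adjusted p = 0.0875), with only the groups compared (-0.34, adjusted p = 0.0519) and with library totals unscaled (-0.32, adjusted p = 0.058), a setting chosen after seeing the data.

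With the replicate number as a replicate block, the members called stayed at 2 higher and 4 lower in each clone, and no call of a member changed (6704, 7130 and 2942 genes called). Same-numbered libraries did not deviate together (correlations -0.156, 0.0819 and 0.00474), so the numbers were not taken as pairs. Upper-quartile scaling moved the median of all genes to -0.11 in clone 2 against WT. With 2 libraries a group, the fit left S100a11 an interval from -1.60 to 1.61 in clone 1, and S100a14 and S100a16 rest on few reads.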

Other observations

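Calcium sensors outside the S100 family were called at shares near those of all genes. Of 26 other EF-hand genes listed, 24 were tested: 7 were called higher and 8 lower in clone 1, and 6 higher and 5 lower in clone 2, with median log2 fold changes of -0.09 and -0.03. Over all genes tested, 24.7% were called higher and 26.2% lower in clone 1, and 25.3% and 28.2% in clone 2. The clones shared 5 genes called higher and 4 called lower. Both comparisons use the same WT libraries, and the share of all genes called alike in both clones was not computed, so these shared counts have no background. Ncs1, neuronal calcium sensor 1, was at 48.7 ± 2.04 CPM in WT, against 114 ± 7.27 in clone 1 and 150.4 ± 0.0282 in clone 2 (SD, n = 2), and rose by log2 fold changes of 1.23 and 1.63 (adjusted p = 3.3e-07 and 1.3e-08, edgeR). Calu, calumenin of the secretory pathway, rose by 0.83 in each clone (adjusted p = 3.76e-05 and 3.39e-05). Ncald, neurocalcin delta, had 1 and 6 WT reads, against 52 and 50 in clone 1 and 26 and 41 in clone 2. Its log2 fold changes were 3.11 and 2.66 (adjusted p = 2.75e-05 and 0.000191, edgeR), and it passed the filter on low counts only through the clones. Rcn2, a reticulocalbin of the endoplasmic reticulum, fell by 0.68 and 0.56 (adjusted p = 0.000131 and 0.000688).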
